A study of Mus musculus with 24 samples.

Results

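The genes described here handle calcium in and around the sarcoplasmic reticulum of skeletal muscle, the membrane store that releases calcium to start a contraction and takes it back to end it. They were chosen by symbol as 10 genes: Atp2a1, Atp2a2, Sln, Pln, Casq1, Casq2, Ryr1, Cacna1s, Pvalb and Trdn. All 10 matched 1 Ensembl gene each among the 47643 genes of the deposited table, and 8 of them passed the filter on low counts. Sln and Pln did not pass it and are given as read counts.

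The samples were plantaris muscles, a fast hindlimb muscle, of wild type C57BL/6 mice. The air group (11 samples) breathed normal air, and the smoke group (13 samples) was exposed to tobacco smoke for 16 weeks. The labels give no age, sex, litter or housing for either group, and they do not say whether each sample is 1 animal, so that p-values measure the spread between these samples. Libraries held reads from the 3′ ends of poly(A) transcripts, with a total of 2515697 to 4528845 counts per sample, and the comparison of smoke with air is the only one the design gives.

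In skeletal muscle the voltage sensor in the transverse tubule pulls open the calcium release channel of the facing reticulum membrane. Pumps of the SERCA family then return calcium to the store, where calsequestrin binds it, and small membrane peptides slow these pumps. Fast fibres use the pump encoded by Atp2a1 and hold much parvalbumin, a soluble calcium buffer that speeds relaxation. Slow fibres and the heart use the pump encoded by Atp2a2, with phospholamban and the second calsequestrin gene.

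The small pump regulators show how unevenly this muscle uses the genes of the pathway, and 3 of their reading frames are short enough to print whole. Sarcolipin (Sln) and phospholamban (Pln) are members of the set. Myoregulin (Mrln) is not, but it acts on the same pumps in skeletal muscle. The coding sequences below come from GENCODE M21, run from 5′ to 3′, and have the start and stop codons in capitals. They encode 31, 52 and 46 residues.
Sln: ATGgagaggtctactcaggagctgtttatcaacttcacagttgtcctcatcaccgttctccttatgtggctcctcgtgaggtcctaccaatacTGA
Pln: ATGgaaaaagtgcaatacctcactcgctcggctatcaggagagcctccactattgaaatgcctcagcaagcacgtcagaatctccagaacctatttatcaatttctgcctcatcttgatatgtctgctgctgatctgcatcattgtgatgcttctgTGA
Mrln: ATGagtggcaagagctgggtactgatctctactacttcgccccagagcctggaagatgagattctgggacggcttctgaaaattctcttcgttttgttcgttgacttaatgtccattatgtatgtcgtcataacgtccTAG
The first of these gave 162 reads over all 24 libraries, the second 207 and the third 17120.

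Pvalb and Atp2a1, the buffer and pump of fast fibres, had the most reads of the set, and no member passed the test of smoke against air over all genes. None of the 8 tested members was called by edgeR's quasi-likelihood test at a Benjamini-Hochberg adjusted p under 0.05, where 1.92% of the 10159 tested genes were called (195 genes: 74 higher in smoke, or 0.728%, and 121 lower, or 1.19%). Unadjusted, 2 members had a p under 0.05, Atp2a2 (lower in smoke) and Trdn (higher), against 15.5% of all tested genes. DESeq2 and limma voom called 0 members as well. The median log2 fold change was -0.024 over the 8 members and 0.0066 over all tested genes, and 3 members were above 0 and 5 below it.

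Levels are given as normalised read counts (CPM, the count scaled to a common library size after TMM scaling). Because the method reads each transcript near its 3′ end, counts were not divided by gene length. Genes can be set side by side on this scale, apart from differences in priming and in the assignment of reads to genes. These data measure neither of them. In descending order of mean level the members were Pvalb, Atp2a1, Casq1, Cacna1s, Ryr1, Trdn, Atp2a2, Casq2, Pln and Sln. The step from Pvalb to Atp2a1 was 6.01-fold, that from Atp2a1 to Casq1 was 2.38-fold, and both held in all 24 samples. Casq1 exceeded Cacna1s by 1.15-fold on average, with the order kept in 20 of 24 samples. Cacna1s exceeded Ryr1 by 1.33-fold in all 24. Ryr1 exceeded Trdn by 1.16-fold, in 22 of 24 samples. The widest step, 19.7-fold, lay between Trdn and Atp2a2 and parts the 6 abundant genes from the 4 genes of slow fibres, heart and pump regulation. Below it Atp2a2 exceeded Casq2 by 2.06-fold and Casq2 exceeded Pln by 5.75-fold, in all 24 samples each. Pln and Sln could not be put in order, since Pln had more reads in only 13 of 24 samples.

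**Figure D1:**
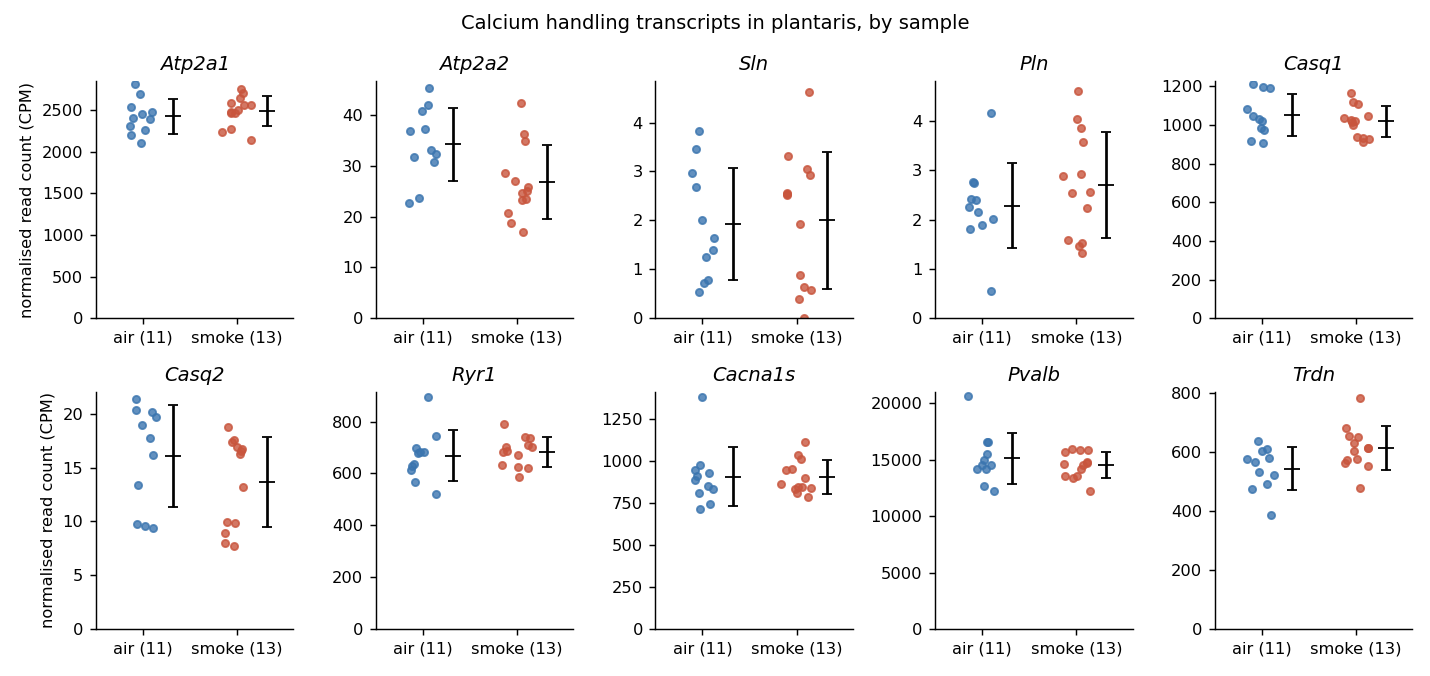
Normalised read count (CPM, vertical axis from 0, its own scale in each panel) of the 10 calcium handling genes in each air sample (11, blue) and smoke sample (13, red), with the mean and SD in black. The groups overlap in every panel; Atp2a2 averages 34.2 CPM in air and 26.8 CPM in smoke, and Casq2 leaves a gap between 9.94 and 13.2 CPM.

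Of the calcium pumps, Atp2a1, the fast fibre SERCA1, was the second most abundant member, and its difference between groups was small. It had a lowest, median and highest level of 2103, 2407 and 2812 CPM in air and of 2140, 2504 and 2750 CPM in smoke. The ranges coincide almost wholly. On the log2 scale smoke exceeded air by 0.04, with a 95% interval from -0.062 to 0.14 (edgeR, adjusted p = 0.767). With 1 sample left out the value ran from 0.018 without air replicate 6 to 0.060 without air replicate 2.

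Atp2a2, the slow fibre and heart SERCA2, was the member with the largest difference, and its mean was lower in smoke. Its lowest, median and highest levels were 22.6, 33.1 and 45.3 CPM in air and 16.9, 25.1 and 42.4 CPM in smoke. The groups overlap: 10 of 13 smoke samples lay under the mean of the air samples, and the highest smoke sample was inside the air range. Air samples averaged 34.2 ± 7.14 CPM (SD, n = 11), smoke samples 26.8 ± 7.27 CPM (SD, n = 13). The log2 fold change was -0.35 (SE 0.12, 95% interval -0.60 to -0.094) and was not called over all genes (edgeR, unadjusted p = 0.00867, adjusted p = 0.145). In whole muscle, fewer cells of a type and less RNA per cell cannot be told apart.

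Because Atp2a1 and Atp2a2 are read in the same library, their ratio needs no scaling. Atp2a1 had 71.7 times the reads of Atp2a2 in air and 95.2 times in smoke, as geometric means. Of the reads of both pumps, Atp2a2 gave 1.40 ± 0.332% in air (SD, n = 11) and 1.07 ± 0.316% in smoke (SD, n = 13). The share ran from 0.955 to 2.11% in air and from 0.654 to 1.66% in smoke, with overlap. The log2 ratio was 0.41 lower in smoke by its mean (difference -0.41, SE 0.15), and 11 of 13 smoke samples lay below the mean of air. This did not pass after adjustment over the 5 ratios compared (two-sided permutation p = 0.0166, adjusted p = 0.0602). As a difference in medians the value was -0.46 (permutation p = 0.0440, adjusted p = 0.220). Over 24 tests that left out 1 sample it ran from -0.47 to -0.35, with an adjusted p from 0.0266 without smoke replicate 1 to 0.111 without smoke replicate 5. The adjusted p was under 0.05 in 4 of them, without air replicate 7 (-0.46), smoke replicate 1 (-0.47), smoke replicate 10 (-0.43) or smoke replicate 11 (-0.46), by the same permutation test.

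Sarcolipin and phospholamban, both inhibitors of the pumps, lay close to the limit of these libraries. A floor of 3 counts corresponds to between 0.665 and 1.15 CPM, depending on the library, for counting error only. Sln had between 2 and 11 reads in the air samples (median 6) and between 0 and 15 in the smoke samples (median 8). In 8 of 24 libraries it had 3 reads or fewer, and in 1 it had 0. No difference was seen (1.93 ± 1.15 CPM in air, SD, n = 11, and 2.00 ± 1.39 CPM in smoke, SD, n = 13, two-sided permutation p = 0.900). How large a difference could be detected at this depth was not tested. Pln had between 2 and 12 reads in air (median 8) and between 4 and 14 in smoke (median 10). It averaged 2.29 ± 0.867 CPM in air (SD, n = 11) and 2.71 ± 1.08 CPM in smoke (SD, n = 13), within the spread of the samples (two-sided permutation p = 0.314).

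Pln was also set against the pump it regulates. Of the reads of Pln and Atp2a2 together it made up 6.35 ± 2.39% in air (SD, n = 11) and 9.43 ± 3.85% in smoke (SD, n = 13). The log2 ratio of Pln to Atp2a2 differed by 0.61 (SE 0.26), with 10 of 13 smoke samples above the air mean, and missed the threshold after adjustment (two-sided permutation p = 0.0241, adjusted p = 0.0602). As a difference in medians the value was 0.67 (permutation p = 0.143, adjusted p = 0.358). Over 24 tests that left out 1 sample it ran from 0.45 without air replicate 1 (adjusted p = 0.143, the highest) to 0.69 without air replicate 7, and the adjusted p was under 0.05 in 3 of them, without air replicate 7, smoke replicate 1 or smoke replicate 10 (0.0282 to 0.0393, permutation tests). This ratio and the pump ratio share the Atp2a2 counts. The ratio of Sln to Atp2a1 differed by -0.23 (two-sided permutation p = 0.667, adjusted p = 0.667), was -0.38 without air replicate 10, and turned in sign to 0.070 without smoke replicate 3, the library with no Sln read.

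The abundant regulator of these pumps was myoregulin. Mrln had 204 ± 18.6 CPM in air (SD, n = 11) and 205 ± 27.8 CPM in smoke (SD, n = 13), which is 0.0089 on the log2 scale (edgeR, adjusted p = 0.973). It had 106 times the reads of Sln and 82.7 times those of Pln, and more than either in all 24 samples. Strit1, which encodes DWORF, an activator of the pumps known from slow fibres and heart, had 26 reads in all and was not tested.

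**Figure D2:**
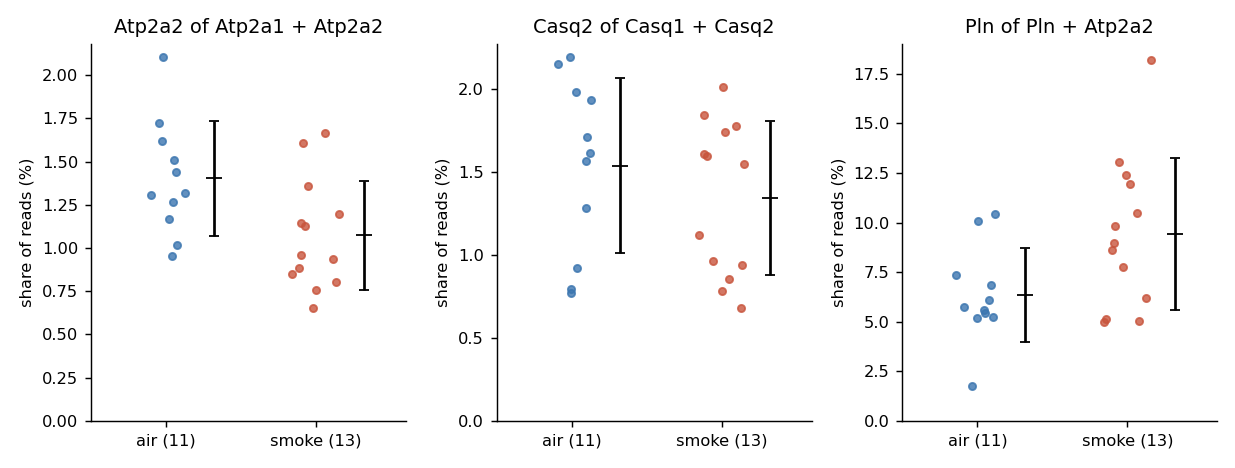
Share of reads (%, vertical axis from 0) that Atp2a2 takes of both pump genes, Casq2 of both calsequestrin genes, and Pln of Pln and Atp2a2 together, in each air sample (11, blue) and smoke sample (13, red), with the mean and SD in black. The Atp2a2 share averages 1.40% in air and 1.07% in smoke, the Pln share 6.35% and 9.43%, and the groups overlap in all 3 panels.

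Inside the store, Casq1, the main calsequestrin of fast fibres, lay at nearly the same level in both groups. Its lowest, median and highest levels were 908, 1032 and 1211 CPM in air and 912, 1022 and 1165 CPM in smoke. Its log2 difference was -0.046 (95% interval -0.16 to 0.064, edgeR, adjusted p = 0.747), and ran from -0.068 without air replicate 6 to -0.027 without air replicate 2.

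Casq2, the calsequestrin of heart and slow fibres, was 67.5 times less abundant than Casq1 in air and 77.1 times in smoke, as geometric means of read counts. Its lowest, median and highest levels were 9.39, 17.8 and 21.4 CPM in air and 7.69, 16.3 and 18.8 CPM in smoke. Smoke minus air came to -0.24 on the log2 scale, with a wide interval, from -0.57 to 0.086 (edgeR, SE 0.16, adjusted p = 0.508). The share of Casq2 in the reads of both genes was 1.54 ± 0.528% in air (SD, n = 11) and 1.34 ± 0.463% in smoke (SD, n = 13), and the log2 ratio differed by -0.19 (two-sided permutation p = 0.400, adjusted p = 0.667). With 1 sample left out it ran from -0.28 without air replicate 2 to -0.12 without smoke replicate 5.

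The Casq2 levels fell on 2 sides of a gap in both groups. In 8 samples, 3 of air and 5 of smoke, they lay between 7.69 and 9.94 CPM, and in the other 16, 8 of each group, between 13.2 and 21.4 CPM. The gap measures 0.39 on the log2 scale, and the lower samples held 20 to 40 reads each and the higher ones 40 to 88. For Atp2a1, Casq1, Ryr1 and Atp2a2 the widest gap between neighbouring samples was 0.054 to 0.18. For Cacna1s, Pvalb and Trdn it was 0.30 to 0.31 and set a single sample apart. All 8 samples low in Casq2 had an Atp2a1 level above the median of their group (2407 CPM in air and 2504 CPM in smoke), between 2531 and 2812 CPM. Atp2a1 was picked for this after the values were seen. How many other genes part the same 8 samples in this way was not counted. Of 2084 other tested genes with a mean between 10 and 20 CPM, 19 (0.912%) had a gap as wide with at least 3 samples on each side, and the median of their widest such gaps was 0.13. This comparison is a description and was chosen after the Casq2 values were seen. Because its samples lie on 2 sides of the gap, no pooled correlation of Casq2 with another gene is given. Within a group the lower samples are too few for one, and dropping them would select samples by the level under study.

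In the release unit, Ryr1, the calcium release channel, and Cacna1s, the voltage-sensing subunit of the dihydropyridine receptor, had differences near 0. Ryr1 had a lowest, median and highest level of 522, 680 and 897 CPM in air and of 586, 686 and 790 CPM in smoke. Its fold change on the log2 scale was 0.033 (95% interval -0.097 to 0.16, edgeR, adjusted p = 0.869), and 0.0011 without air replicate 1. Cacna1s had 713, 886 and 1378 CPM in air and 787, 861 and 1114 CPM in smoke. Its log2 fold change was -0.0021 (95% interval -0.16 to 0.15, edgeR, adjusted p = 0.994), and this sign changed with scaling and with single samples. As a share of the reads of both genes, Cacna1s ran from 52.3 to 60.6% in air and from 53.4 to 62.2% in smoke. Of the reads of both genes, Cacna1s took 57.4 ± 2.5% in air (SD, n = 11) and 56.9 ± 2.30% in smoke (SD, n = 13; log2 ratio difference -0.030, two-sided permutation p = 0.611, adjusted p = 0.667). This difference was -0.060 without air replicate 10 and -0.011 without air replicate 11.

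Trdn, which encodes triadin, the protein that ties the release channel to calsequestrin, was the tested member with the highest fold change. Its lowest, median and highest levels were 387, 567 and 638 CPM in air and 478, 615 and 786 CPM in smoke. The groups overlap, and 12 of 13 smoke samples lay above the air mean of 545 ± 72.4 CPM (SD, n = 11). The smoke mean was 615 ± 73.9 CPM (SD, n = 13). This is a log2 fold change of 0.17 (SE 0.070, 95% interval 0.033 to 0.32), which was not called (edgeR, unadjusted p = 0.0171, adjusted p = 0.196). It was 0.13 (adjusted p = 0.291) without air replicate 11, which held the lowest Trdn level. The Trdn locus overlaps 8 other annotated genes, 4 of them on the opposite strand, and the use of strand in counting is not given in the sources used here.

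Pvalb, parvalbumin, the cytosolic buffer of fast fibres, was the most abundant member. Its lowest, median and highest levels were 12225, 14564 and 20615 CPM in air and 12260, 14661 and 15982 CPM in smoke. A single air sample lay far above the rest. Between groups the log2 difference was -0.057 (95% interval -0.19 to 0.071, edgeR, adjusted p = 0.727).

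That sample, air replicate 11, stood apart in several members. It had the highest Ryr1, Cacna1s and Pvalb levels and the lowest Trdn level of the air group. It also had the highest summed level of fast fibre markers (224942 CPM, the next air sample 177752 CPM) and of skeletal muscle markers (125110 CPM, the next 99113 CPM). The part of this sample in the results was not tested beyond leaving it out. Without it the log2 fold change was 0.079 for Ryr1 (edgeR, adjusted p = 0.533), 0.071 for Cacna1s (adjusted p = 0.618), -0.0075 for Pvalb (adjusted p = 0.970) and -0.36 for Atp2a2 (adjusted p = 0.124), and again 0 members were called.

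**Figure D3:**
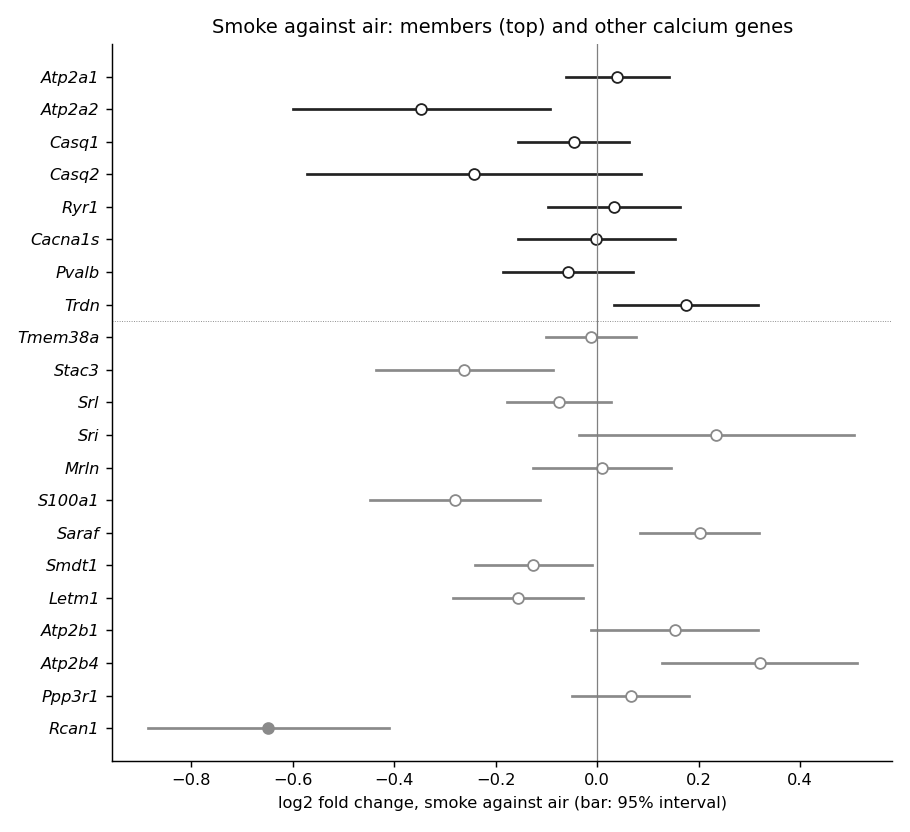
Log2 fold change in smoke against air (horizontal axis) with its 95% interval for the 8 tested members (above the dotted line) and for 13 other calcium genes (below it). Filled points are genes with an adjusted p under 0.05 by edgeR, and only Rcan1, at -0.65, is filled. The intervals of Atp2a2 and Trdn leave out 0 without passing the adjustment. The same holds for Stac3, S100a1, Saraf, Smdt1, Letm1 and Atp2b4 among the other calcium genes.

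The members differed in how much they varied between samples of 1 group. Atp2a1 had the smallest coefficient of variation of its CPM, 8.56% in air and 7.27% in smoke, and Casq1 had 10.3% and 7.73%. The other 4 abundant members varied more in air: Cacna1s had 19.5% in air and 11.1% in smoke, Pvalb 15.0% and 7.83%, Ryr1 14.7% and 8.35%, and Trdn 13.3% and 12%. The median over the 191 genes at 500 CPM or more was 10.8% in air and 8.35% in smoke, so that those 4 lay above it in air. Air replicate 11, described above, is among these values. Atp2a2 varied by 20.9% and 27.2%, and Casq2 by 29.3% and 30.6%. Both exceed the median of the 4223 genes between 10 and 50 CPM, which was 17.5% in air and 17.1% in smoke. Casq2, with a mean of 14.8 CPM and 20 to 88 reads per sample, lies near the lower end of that range. It was not set against genes of its own level here. Sln, at 59.3% and 69.6%, and Pln, at 37.9% and 39.9%, rest on a few reads per library.

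Plantaris holds few slow fibres, and their number can differ from muscle to muscle, so each member was set against a slow fibre score, the mean log2 CPM of Myh7, Myl2, Myl3, Tnnc1, Tnni1, Tnnt1 and Tpm3. This score came to 4.83 ± 0.487 in air (SD, n = 11) and 4.80 ± 0.550 in smoke (SD, n = 13; difference -0.029, two-sided permutation p = 0.892). Atp2a2 followed it in both groups. In air, r was 0.84 (permutation p = 0.000770, adjusted p = 0.00770) and rho 0.82 (permutation p = 0.00301, adjusted p = 0.0301). In smoke, r was 0.81 (permutation p = 0.000710, adjusted p = 0.00770) and rho 0.77 (permutation p = 0.00254, adjusted p = 0.0301). With the 2 samples of most extreme score (farthest from its median) left out, r was 0.62 in air and 0.61 in smoke. With the median of the 7 genes in place of their mean, r in air was 0.78 and no longer passed (permutation test, adjusted p = 0.0635). Of the 20 relations tested, 2 of which were those of Casq2 and ran across its gap, these were the only 2 that passed, and the next was Sln in air (r 0.67, rho 0.66, permutation p = 0.0279, adjusted p = 0.186, r 0.73 with 2 samples left out as above), where Sln in smoke had an r of -0.051 (permutation p = 0.867, adjusted p = 0.950).

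With the slow fibre score as a covariate, Atp2a2 was called lower in smoke: its log2 fold change was -0.34 (edgeR, adjusted p = 0.0263), and it was then the only member called. This held in each of 24 fits that left out 1 sample, with values from -0.38 to -0.31 (edgeR, adjusted p from 0.00926 to 0.0496). With Myh7 alone as the covariate the value was -0.37 (adjusted p = 0.0182). With the median of the 7 genes it was -0.29 and not called (adjusted p = 0.0998). The call of Atp2a2 thus depends on whether and how slow fibre content enters the fit, while its sign did not change in any fit made.

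The slow fibre genes differed among themselves in the sign of their fold change. Of the 7, 0 were called by edgeR, 2 had an unadjusted p under 0.05 and 4 had a fold change above 0; their summed level ran from 384 to 765 CPM in air and from 328 to 695 CPM in smoke. Myl2, a light chain of slow fibres and heart, had 106 CPM in air and 76.4 CPM in smoke (log2 fold change -0.46, edgeR, adjusted p = 0.0784). Myl3 stood at -0.29 (adjusted p = 0.150), whereas the slow troponin genes Tnnc1 and Tnni1 stood at 0.59 (adjusted p = 0.477) and 0.43 (adjusted p = 0.568) on few reads. Myh7, the slow myosin heavy chain, stood at 0.15 (adjusted p = 0.875) and Tnnt1 at 0.016 (adjusted p = 0.986). Without the filter on low counts Myl2 passed the threshold (edgeR, adjusted p = 0.0132). The part of these differences in the Atp2a2 result was not tested beyond the covariates above. Among the 9 fast fibre markers 0 were called by edgeR; Myh2, of the oxidative fast fibres, stood at -0.27 (adjusted p = 0.0627, and 0.0448 without the filter) and Myh4, of the fastest fibres, at 0.16 (adjusted p = 0.228). Heart tissue was near 0: its 7 markers summed to between 3.93 and 7.98 CPM per sample, Nppb had 0 reads in all libraries, Myl7 had 1 and Nppa had 2.

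**Figure D4:**
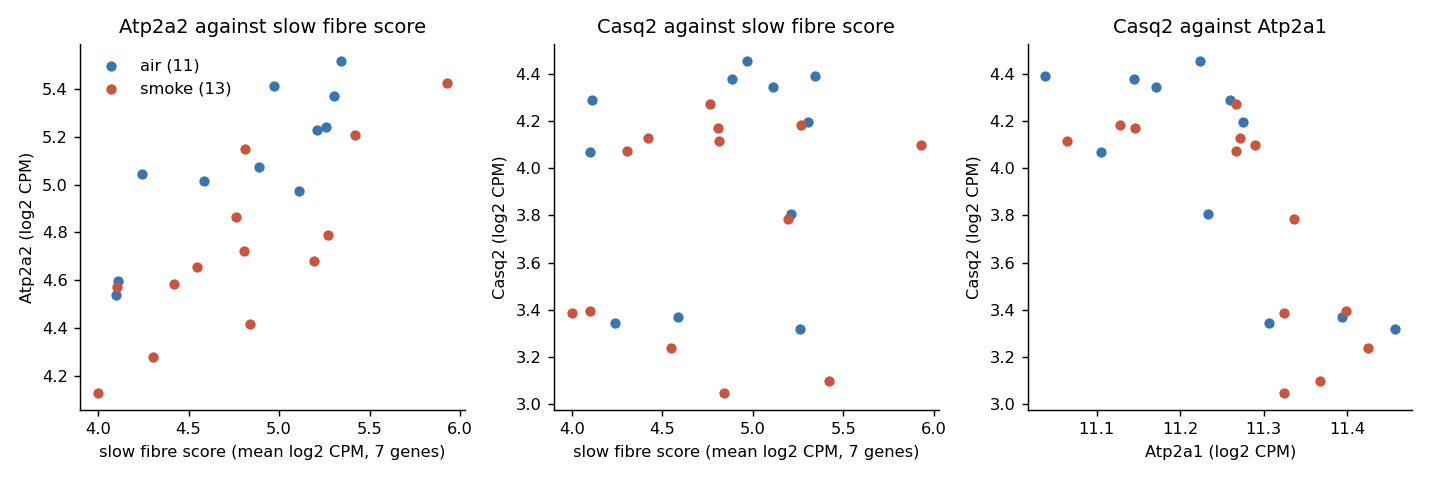
Left and centre, Atp2a2 and Casq2 (log2 CPM, vertical) against the slow fibre score (mean log2 CPM of 7 genes, horizontal); right, Casq2 against Atp2a1 (both log2 CPM), with 1 point per air sample (11, blue) or smoke sample (13, red). Atp2a2 rises with the score in both groups (r 0.84 in air and 0.81 in smoke). Casq2 lies in an upper group of 16 samples and a lower group of 8. Those 8 all have an Atp2a1 level above the median of their air or smoke group, which was not compared with other genes.

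Over all 24 samples, after subtraction of the group means, the 3 genes most like each tested member other than Casq2 were listed among 6101 genes with a mean of at least 10 CPM, by Pearson's r of log2 CPM, as a description. For Atp2a2 they were Tnnt1 (r 0.81), Myh7 (0.80) and Nuak1 (0.70), of which the first and second belong to the slow fibre list. For Pvalb they were Actn3 (0.90), the actinin of fast fibres, Pgm1 (0.89) and Tmem233 (0.89). For Cacna1s they were Psmb6 (0.93), Ndufa13 (0.91) and Romo1 (0.90), a proteasome subunit and a pair of mitochondrial proteins, and for Ryr1 Atp9b (0.82), Epn1 (0.80) and Tmem160 (0.80). Trdn was nearest to Psme4 (0.81), Cnbp (0.81) and Rbm24 (0.80). The nearest genes were less close for Casq1 (Osgep 0.77, Ociad2 0.71, Abcb10 0.70) and for Atp2a1 (Upf1 0.72, Smyd1 0.70, Bag6 0.69). Air replicate 11 enters these values. Without it, r for the same genes was 0.87, 0.86 and 0.83 for Cacna1s, 0.83, 0.81 and 0.82 for Pvalb, 0.77, 0.67 and 0.68 for Ryr1 and 0.71, 0.79 and 0.71 for Trdn. For Atp2a1, Atp2a2 and Casq1 it lay between 0.66, with Smyd1, and 0.81, with Myh7. Spearman's rho over all 24 samples ran from 0.71 for Ryr1 with Epn1 to 0.87 for Cacna1s with Psmb6 among the genes named for Cacna1s, Pvalb, Ryr1 and Trdn, and from 0.64 with Nuak1 to 0.81 with Myh7 among those named for the other members. No member was among the nearest genes of another.

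The members were also set against each other within each group. The 7 tested members other than Casq2 form 21 pairs, and 0 of the 42 relations within air or smoke passed adjustment by the permutation test. In 13 of 21 pairs r had the same sign in both groups. The highest was Ryr1 with Cacna1s in air (r 0.81, rho 0.59, permutation p = 0.00539, adjusted p = 0.103), where it was 0.53 in smoke (rho 0.62, permutation p = 0.0605, adjusted p = 0.318). In air this rested in part on replicate 11: r was 0.56 without that sample, and 0.23 once the 2 samples farthest from the Ryr1 median were left out. Cacna1s with Pvalb had r 0.80 in air (rho 0.53, permutation p = 0.00734, adjusted p = 0.103), 0.48 without replicate 11 and 0.17 once the 2 farthest from the Cacna1s median were left out, and 0.43 in smoke (rho 0.45, permutation p = 0.141, adjusted p = 0.456). Atp2a1 with Casq1, the pump and buffer of fast fibres, had r 0.77 in air (rho 0.83, permutation p = 0.00643, adjusted p = 0.103), 0.85 without replicate 11 and 0.57 once the 2 samples farthest from the Atp2a1 median were left out, and 0.37 in smoke (rho 0.44, permutation p = 0.220, adjusted p = 0.571).

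**Figure D5:**
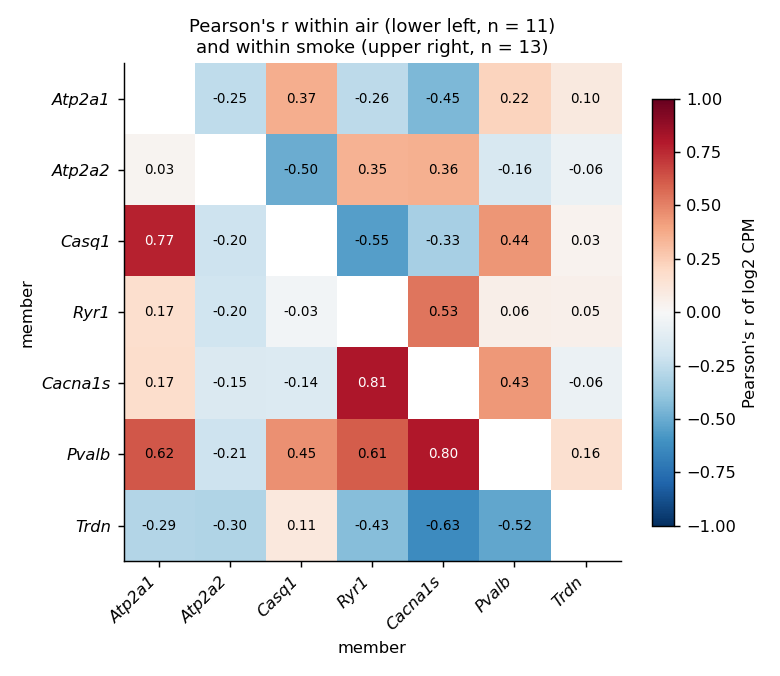
Pearson's r of log2 CPM between the 7 tested members other than Casq2, within the 11 air samples (lower left) and within the 13 smoke samples (upper right), on a colour scale from -1 to 1. The deepest red cells are Ryr1 with Cacna1s (0.81), Cacna1s with Pvalb (0.80) and Atp2a1 with Casq1 (0.77), all in air.

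Beyond the members, 72 further calcium genes were listed in 7 groups, and 63 of them were tested. Of these 0 were called higher and 1, Rcan1, was called lower by edgeR, or 1.59%, beside 1.92% of all genes. There were 9 at an unadjusted p under 0.05. Their median log2 fold change was -0.0064, with 31 above 0 and 32 below.

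Of the release unit and triad, 16 genes were listed and tested and 0 were called by edgeR. Tmem38a, a potassium channel of the reticulum membrane, was the most abundant, with 1298 CPM in air and 1287 CPM in smoke (log2 fold change -0.012, adjusted p = 0.934). Stac3, an adaptor that the voltage sensor needs, had the smallest p, with 51.5 and 42.8 CPM (log2 fold change -0.26, edgeR, adjusted p = 0.103, and 0.120 without the filter on low counts). Of pump regulators and luminal proteins, 7 of 9 were tested and 0 called. Srl, sarcalumenin, stood at -0.075 (edgeR, adjusted p = 0.510) and Sri, sorcin, at 0.23 (adjusted p = 0.413).

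Of cytosolic calcium binding proteins, 6 of 8 were tested and 0 were called by edgeR. S100a1, a calcium sensor that acts on the release channel and the pump, had 133 ± 25.0 CPM in air (SD, n = 11) and 109 ± 13.1 CPM in smoke (SD, n = 13). All 13 smoke samples lay below the air mean, with a log2 fold change of -0.28 (edgeR, SE 0.082, adjusted p = 0.0650), and it passed the threshold without the filter on low counts (adjusted p = 0.0422). The other alternatives were not run for this gene.

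Store-operated entry refills the reticulum from outside the cell, and 6 of its 7 genes were tested, with 0 called by edgeR. Saraf, which restrains this entry, had both the highest level and the smallest p: 341 ± 31.2 CPM in air (SD, n = 11) and 392 ± 39.3 CPM in smoke (SD, n = 13). It stood at 0.20 (edgeR, adjusted p = 0.0564, and 0.160 without the filter on low counts), and 12 of 13 smoke samples exceeded the mean of air. Of mitochondrial calcium uptake, 8 of 9 genes were tested and 0 called; Smdt1, a subunit of the uniporter, stood at -0.13 (edgeR, adjusted p = 0.268) and Letm1, of the inner membrane, at -0.16 (adjusted p = 0.202). Of surface calcium extrusion, 5 of 7 were tested and 0 called. Of its pumps Atp2b1 stood at 0.15 (edgeR, adjusted p = 0.366) and Atp2b4 at 0.32 (adjusted p = 0.0672, and 0.0762 without the filter; 12 of 13 smoke samples above the air mean).

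In calcium signalling, 15 of 16 genes were tested, and Rcan1 fell. This inhibitor of the calcium-activated phosphatase calcineurin, whose gene is also a target of the calcineurin pathway, had 177 ± 43.4 CPM in air (SD, n = 11) and 113 ± 27.8 CPM in smoke (SD, n = 13). Below the mean of air were 12 of 13 smoke samples. The log2 fold change was -0.65 (SE 0.12, edgeR, adjusted p = 0.00226). The most abundant gene of the list, Ppp3r1, the regulatory subunit of calcineurin, stood at 0.066 (edgeR, adjusted p = 0.644).

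Other cell types were present in these muscles and some of their markers moved with smoke. Of 5 tested Schwann cell and nerve markers 3 were called higher by edgeR, and their list summed to between 118 and 277 CPM in air and between 178 and 856 CPM in smoke. Of 5 blood markers 3 were called lower, with sums from 486 to 1444 CPM in air and from 369 to 883 CPM in smoke. Against this, skeletal muscle markers summed to between 84697 and 125110 CPM in air and between 85587 and 106848 CPM in smoke. The part of these cell types in the values of the members was not tested.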

How the data were processed

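The members and gene lists were chosen with earlier results of these data known. The deposited table holds the authors' unnormalised counts, with 1 row per Ensembl gene and 1 column for each of 24 samples. Per the labels' protocols, RNA was purified on columns and libraries were made with Lexogen QuantSeq 3′ FWD. The submitters' processing notes name STAR, DESeq2 and mm9, with no role stated; the counter, annotation, strand setting, read filter and use of molecular identifiers are not given in the sources used here. Reads can thus include PCR copies. Per the file headers, smoke libraries have sheet numbers 229 to 241 and air libraries 242 to 252, so sheet position and group cannot be told apart. Groups came from sample titles. Symbols came from GENCODE M21 (GRCm38), which held 47224 of 47643 IDs (99.1%); its build differs from mm9, so no gene coordinates are given. Only Sln and Pvalb among the members overlap no other gene of that annotation; Rcan1 overlaps Gm46555 on the opposite strand, and reads of overlapping genes may have been counted together. Strit1 was matched as Gm34302 and Stimate as Tmem110.

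Counts were tested with edgeR 4.0.16 in R 4.3.3: filterByExpr with a minimum count of 10, TMM scaling, the quasi-likelihood F-test of smoke against air without covariates, Benjamini-Hochberg adjustment over 10159 genes. CPM used the TMM-scaled libraries, and log2 CPM a prior count of 2. Ratios were log2 ratios of counts with 0.5 added, compared by two-sided permutation tests (100000 resamples) and adjusted over 5. Correlations were computed within groups and adjusted over 20 and 42 relations. Of these steps, only the edgeR fit was tested on simulated data, and the outcome is not reported here. Alternatives used DESeq2 1.42.0, limma 3.58.1, other scalings, filters and covariates, and leaving out each sample.

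Named were all members and, in 7 lists of other calcium genes, each called gene, the most abundant gene and the one with the smallest p. Of the genes so selected, 1 is not reported here. Mrln, Strit1, the fibre markers named and the relations among members were chosen after their values were seen. No 2 samples of the same group agreed within sampling noise (chi-square per gene 2.51 to 18.7 over 133 pairs), and pairs across groups were not compared.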

Additional observations from a re-analysis of the deposited data

How the results depend on the processing

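Under 12 alternative settings and 24 fits that left out 1 sample, Atp2a1, Casq1, Casq2, Ryr1, Pvalb and Trdn kept their sign and were never called; Pvalb has no value without the 10 most abundant genes, being one of them. Atp2a2 ranged from -0.42 to -0.29. Members called numbered 0, also without any 1 sample (0 to 0), except 1 (Atp2a2) with the slow fibre score and 1 with Myh7 as covariate. Genes called numbered 195, and 141 to 254 without 1 sample; they were 318 (110 higher, 208 lower) by DESeq2 and 413 (169 higher) at an adjusted p under 0.10. The sign of Cacna1s reversed to 1.61e-06 with upper-quartile scaling, 0.013 with limma voom and 0.0044 with the median of slow fibre genes as covariate, and ran from -0.033 to 0.071 without 1 sample. The Sln to Atp2a1 ratio reversed to 0.55 as a difference in medians, and ran from -0.38 to 0.070 without 1 sample. Ratios passing numbered 0, and 0 to 2 without 1 sample. With the median over the slow fibre list, 1 relation passed in place of 2. The cause of these shifts was not tested. Replicate numbers are shared between the groups, and same-numbered samples were not alike on average. After subtraction of the group means, the mean r of 11 same-numbered pairs was -0.0059 (from -0.28 to 0.14, 4 of them over 0.1). The mean over 132 other pairs was 0.0011, a value that the subtraction itself holds near 0. Whether the samples were paired cannot be told from these values. With the replicate number as a block 138 genes, 0 members and 0 ratios were called, Atp2a2 stood at -0.37 (edgeR, adjusted p = 0.125), the pump ratio at -0.43 and the Pln to Atp2a2 ratio at 0.51 (exact permutation tests, adjusted p = 0.0854 for both). Depth limits Sln, Pln and, less so, Casq2. The covariates of the median slow fibre gene and of Myh7, and the joint use of the score and leaving out samples, were chosen after the data were seen.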
